A study of Rattus norvegicus and Mus musculus and Macaca mulatta with 84 samples.

Results

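Fatty acid oxidation and ketogenesis were followed in liver through 36 genes, which were picked out of the RNA tables by their gene symbols. They comprise 17 mitochondrial, 5 peroxisomal, 3 omega-oxidation and 2 ketone genes, 6 genes of fatty acid uptake, activation, binding and thioester cleavage, and 3 regulators or markers of PPARalpha activity. In rats 34 of them were listed among 32754 genes, and in mice 35 among 48440. Cyp4a10 and Cyp4a14 had no entry in the rat table and Cyp4a1 none in the mouse table.

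Of the 84 liver samples analysed for the study, 31 are polyadenylated RNA libraries, and only these carry the 36 genes. UCD-T2DM rats, a strain that passes through a prediabetic phase before type 2 diabetes, gave 5 prediabetic libraries and, counted from the onset of diabetes, 4 libraries at 2 weeks, 5 at 3 months and 6 at 6 months. C57BL/6J mice gave 5 libraries after treatment with LNA-29, a locked nucleic acid directed against the microRNA miR-29, and 6 control libraries. All rats described here are of the UCD-T2DM strain, so that the prediabetic animals are the only baseline. The labels give no sex, age or feeding state for either species, so that duration of diabetes and age cannot be told apart, and they give neither dose nor duration for LNA-29 nor what its controls received. They name separate animals for the rat libraries but not for the mouse libraries, where p-values measure the spread between samples, which may be technical.

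Fatty acids that enter a hepatocyte are bound by carrier proteins, joined to coenzyme A and either stored or burned. Long chains reach the mitochondrial matrix as carnitine esters and are shortened in a repeating spiral of dehydrogenation, hydration, dehydrogenation and thiolysis. Peroxisomes shorten very long and branched chains, and cytochromes P450 of the Cyp4a family oxidise the omega end. The acetyl-CoA released in liver mitochondria feeds ketone body synthesis during fasting and insulin lack, and the nuclear receptor PPARalpha drives most of these genes together.

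Values are the authors' normalised counts. Library sums lay between 37624000 and 49859000 normalised counts in rats and between 43342000 and 52750000 in mice, and each rat library correlated with the others of its stage at a mean r of 0.959 to 0.978. The lowest, 0.959, was that of prediabetic replicate 2, the other prediabetic libraries lying at 0.975 to 0.976. That library was the highest of its stage for 15 of 33 members and the lowest for 5. Group values are means ± SD, and a log2 change is the difference of mean log2(normalised count + 1). Genes were tested with limma across the whole table, 13640 in rats and 14596 in mice, and were called at a Benjamini-Hochberg adjusted p under 0.05. Of the members, 33 of 34 in rats and 35 of 35 in mice passed the filter of a mean of at least 10. The exception was Acot1, a cytosolic acyl-CoA thioesterase, which ran from 0.868 to 32.9 normalised counts over all rat libraries.

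Rat livers at 3 and 6 months of diabetes carried less RNA of most members than prediabetic livers. At 3 months 21 of the 33 tested members fell and none rose, beside 16.5% of all genes called in either direction, 8.72% lower and 7.76% higher. By 6 months of diabetes 20 fell and none rose, beside 21.1% of all genes called, 10% lower and 11% higher. The median change of the members was -0.52 at 3 months and -0.55 at 6 months, against medians of 0.02 and 0.01 over all genes tested. All 3-month values lay below all prediabetic ones for 12 of the 33 members, or 36.4%, against 6.60% of all genes tested. At 6 months this held for 14 members, or 42.4%, against 5.17% of all genes. After 2 weeks limma called no member and 0% of all genes (smallest adjusted p over all genes 0.166), while 18 of 33 members had an unadjusted p under 0.05, against 7.90% of all genes, all 18 of them lower. The median of the members was -0.37 at 2 weeks, with 31 of 33 below 0, against a median of 0.02 over all genes. These 3 comparisons share the 5 prediabetic libraries and are therefore not independent of each other. In bulk liver, fewer cells of a type and less RNA per cell cannot be told apart.

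Together the 34 members took 1.87% ± 0.157 of all normalised counts in prediabetic livers, 1.54% ± 0.273 at 2 weeks, 1.29% ± 0.163 at 3 months and 1.10% ± 0.144 at 6 months. Single libraries lay between 1.71% and 2.11% before diabetes, 1.23% and 1.86% at 2 weeks, 1.06% and 1.5% at 3 months, and 0.924% and 1.35% at 6 months. No library of the last 2 stages reached the lowest prediabetic share. The 17 mitochondrial members made up 0.689% ± 0.0524, 0.569% ± 0.0652, 0.502% ± 0.0795 and 0.440% ± 0.0667 of normalised counts over the 4 stages. For the 5 peroxisomal members the shares were 0.225% ± 0.0248, 0.186% ± 0.0191, 0.179% ± 0.0309 and 0.159% ± 0.0216. The ketone pair held 0.0687% ± 0.00626, 0.0593% ± 0.0107, 0.0402% ± 0.00781 and 0.0309% ± 0.00962. The 6 members of uptake, activation, binding and thioester cleavage held 0.829% ± 0.0736, 0.684% ± 0.178, 0.521% ± 0.0786 and 0.431% ± 0.0617. Among them Fabp1 averaged 157220 normalised counts before diabetes and 70285 at 6 months, and Acsl1 111540 and 54081. The total of all members leans on these genes. The 3 regulators or markers held 0.0148% ± 0.00337, 0.0146% ± 0.00168, 0.0155% ± 0.00474 and 0.0117% ± 0.00105. Since a share depends on all other genes of a library, it describes the makeup of the RNA and not an amount per cell.

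**Figure D1:**
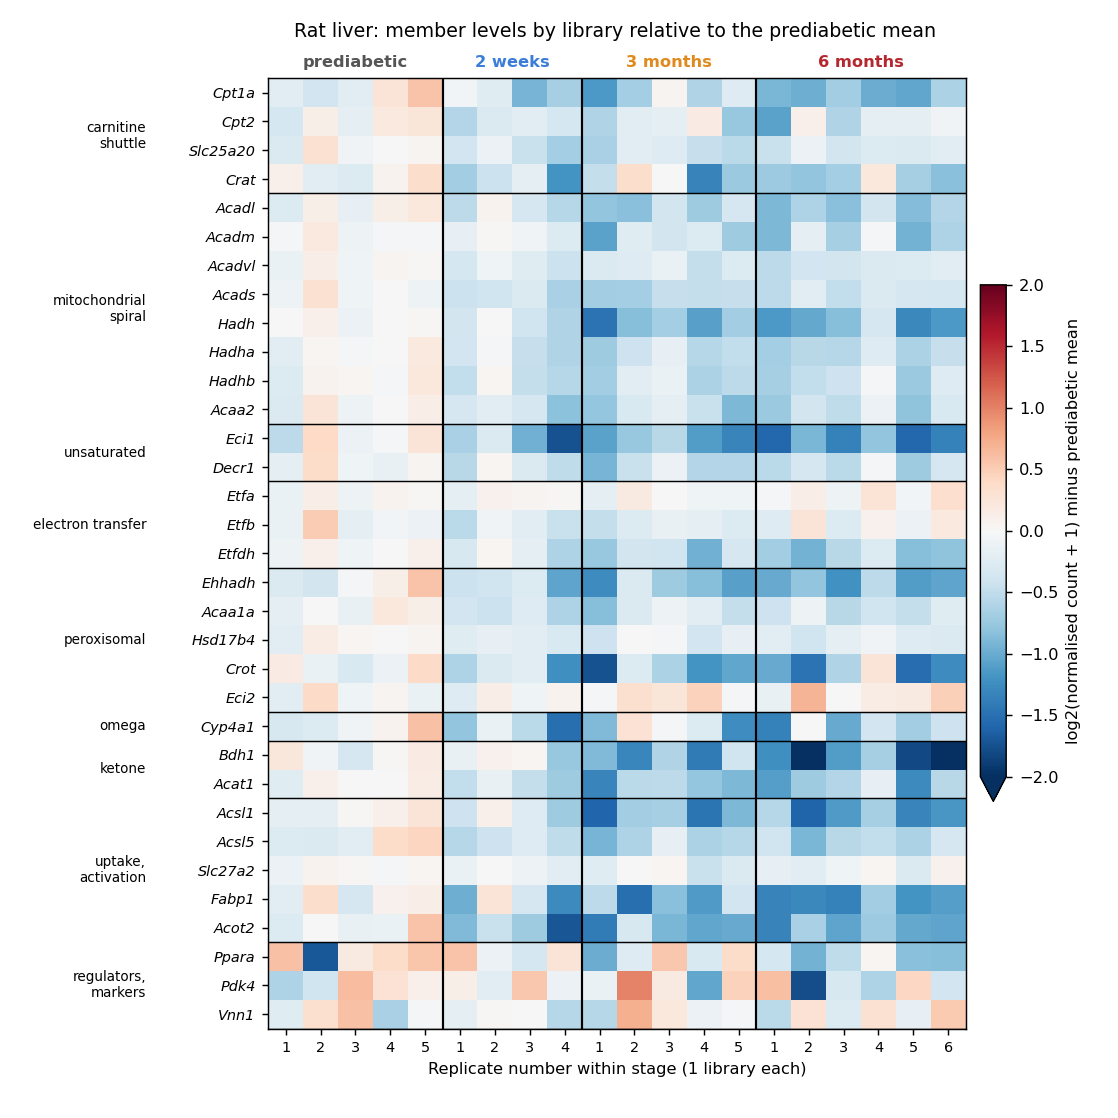
Each row is 1 of the 33 tested members and each column a rat library; colour gives log2(normalised count + 1) minus the mean of the 5 prediabetic libraries, with values under -2 drawn in the darkest blue. Blue predominates at 3 and 6 months in most rows, while Etfa, Etfb, Eci2 and the regulators are mixed, and Bdh1 reaches below -2 in 2 of the 6 libraries at 6 months.

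Of the 5 tested genes that take up, bind or activate fatty acids or split their thioesters, 4 fell at 3 months and 4 at 6 months. Over all genes 8.72% and 10% were called lower at these stages. Fabp1, the liver fatty acid binding protein, had 132050, 196890, 122160, 164320 and 170660 normalised counts in prediabetic livers and 78475, 185070, 122120 and 64153 at 2 weeks. It had 107620, 54429, 87136, 70887 and 118170 at 3 months and lay between 60804 and 95829 with a median of 65793 at 6 months. Every library of the last 2 stages was below the lowest prediabetic one, while 2-week replicate 2 was inside the prediabetic range and the other 3 were below it. Fabp1 fell by 0.88 (SE 0.25, adjusted p = 0.0237) at 3 months and by 1.16 (SE 0.24, adjusted p = 0.00286) at 6 months on the log2 scale.

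Acsl1, the main long-chain acyl-CoA synthetase of liver, had 97172, 97039, 112550, 118430 and 132490 normalised counts before diabetes and 83273, 118350, 92722 and 67570 at 2 weeks. At 3 months it had 36760, 68351, 69712, 40024 and 59708, and at 6 months it lay between 36625 and 74355 with a median of 49759. No 3-month or 6-month library reached the prediabetic range. Acsl1 fell by 1.06 (SE 0.22, adjusted p = 0.00336) and by 1.08 (SE 0.21, adjusted p = 0.00152) at these stages. Acot2, a mitochondrial thioesterase that splits acyl-CoA, had 1594, 1938, 1739.8, 1762 and 2880 normalised counts before diabetes, and its 2-week, 3-month and 6-month libraries all lay below these. It had 1046, 1429.8, 1178 and 592 at 2 weeks and 734, 1549, 1023, 937 and 963 at 3 months, and lay between 769.6 and 1229 with a median of 942 at 6 months. The fall of Acot2 was 0.94 at 3 months (SE 0.22, adjusted p = 0.00804) and 0.98 at 6 months (SE 0.21, adjusted p = 0.00363). Since Acot genes resemble each other closely, the counting may have split their reads, and their values are uncertain. Acsl5, a further acyl-CoA synthetase, fell by 0.58 and 0.55, and Slc27a2, which takes up and activates very long chains, was at -0.18 (95% interval -0.41 to 0.04, adjusted p = 0.249) at 3 months and -0.11 (95% interval -0.32 to 0.11, adjusted p = 0.482) at 6 months.

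Fabp1 was the only one of 29 members with a RefSeq promoter entry (build GRCr8) whose window, from 250 bases before the gene's start to 50 after it, held the motif AGGNCANAGGNCA. These letters are 2 AGGNCA copies a base apart, the layout PPARalpha and its partner RXR are known to bind, searched on both strands. The table holds 33469 promoters, of which 139 had it, or 0.415%. The 250 bases before the start of Fabp1 (chr4:104749090-104749339, plus strand) are shown because Fabp1 fell at both late stages and had the only such match. Capitals mark the match, which reads AGGCCATAGGTCA on the other strand and lies 77 to 65 bases before the start.
Fabp1: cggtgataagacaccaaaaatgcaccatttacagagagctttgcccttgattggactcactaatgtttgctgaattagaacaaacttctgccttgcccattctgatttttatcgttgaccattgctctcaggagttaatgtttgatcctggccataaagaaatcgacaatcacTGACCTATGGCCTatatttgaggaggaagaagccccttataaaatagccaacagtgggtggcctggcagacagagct
The shorter AGGTCA, a single copy that overlaps the longer motif in Fabp1, stood in the windows of 7 of 29 members, or 24.1%, and of 16.2% of all promoters, again over both strands. The members were Fabp1, Eci1, Acadvl and Hadhb, which were called lower at both late stages, and Slc27a2, Hsd17b4 and Eci2, which were called at neither. The match lay past the start in Hadhb and Eci2 and wholly before it in the other 5. As examples, from 2 mitochondrial members with a match before the start, Eci1 (chr10:13961144-13961173, plus strand) and Acadvl (chr10:55236705-55236734, minus strand, the nearer of its 2 matches), 30 bases are given with the match in capitals.
Eci1: actggctgatctTGACCTcctgaagggcgg
Acadvl: agacgggagaagAGGTCAgtggtcaaggct
The matches are letters in a window and say nothing of binding in these livers.

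The carnitine shuttle carries long chains into mitochondria. Of its 4 genes 1 was called lower at 3 months and another at 6 months, beside 8.72% and 10% of all genes. Cpt1a, the outer-membrane transferase that limits the rate of entry, had 19006, 17188, 19276, 26710 and 33041 normalised counts in prediabetic livers and 21505, 18972, 11703 and 14093 at 2 weeks. It had 10028, 13891, 23085, 14748 and 18672 at 3 months, where the ranges overlapped, and lay between 10868 and 14419 with a median of 11580 at 6 months, wholly below the prediabetic values. Cpt1a fell by 0.88 (SE 0.20, adjusted p = 0.00569) at 6 months and stood at -0.53 (95% interval -0.98 to -0.08, adjusted p = 0.0942) at 3 months. Slc25a20, the inner-membrane carrier that exchanges acylcarnitine for carnitine, had 4574, 6125, 6038, 5252 and 4965 normalised counts at 3 months, against 5880.2, 8904, 6864, 7161 and 7474 before diabetes. It fell by 0.42 (SE 0.12, adjusted p = 0.019) at 3 months, with overlapping ranges, and was at -0.29 (95% interval -0.52 to -0.05, adjusted p = 0.0773) at 6 months. Cpt2, which restores acyl-CoA on the matrix side, and Crat, the acetyl transferase, were not called, at -0.32 and -0.44 at 3 months and -0.34 and -0.58 at 6 months. The highest 6-month Crat library, replicate 4, had 2263 normalised counts, and the other 5 lay at 1243 or below. Crat at 6 months was called lower without that library (-0.74, adjusted p = 0.0335), with library weights (-0.66, 0.0337) and with only the 2 groups fitted (-0.58, 0.0492). In the other 18 of 21 omissions and settings its adjusted p lay between 0.0533 and 0.233.

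All 8 genes of the mitochondrial spiral fell at 3 months and again at 6 months, with medians of -0.53 and -0.50. The shares of all genes called lower were 8.72% and 10%. Hadh, the short-chain hydroxyacyl-CoA dehydrogenase, had 22031, 23365, 20068, 21885 and 22150 normalised counts before diabetes and 16908, 21705, 16509 and 14489 at 2 weeks. It had 7819, 12124, 13697, 10324 and 13457 at 3 months and lay between 8928 and 17309 with a median of 10328 at 6 months. Both late stages were separated from the prediabetic livers, and Hadh fell by 0.96 (SE 0.17, adjusted p = 0.00133) and by 0.97 (SE 0.16, adjusted p = 0.000522). Acadl, the long-chain acyl-CoA dehydrogenase, had 17978, 23569, 19401, 23493 and 25007 normalised counts before diabetes, 12512, 12199, 16766, 13280 and 17261 at 3 months, and lay between 11651 and 16840 with a median of 13096 at 6 months. These ranges did not overlap either. Acadl fell by 0.61 (SE 0.14, adjusted p = 0.00851) at 3 months and by 0.70 (SE 0.14, adjusted p = 0.00195) at 6 months.

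Acads, the short-chain dehydrogenase, had 6671, 8782, 6705, 7095 and 6632 normalised counts before diabetes and 5318, 5424, 5855 and 4569 at 2 weeks. It had 4412, 4467, 5191, 5138 and 5210.2 at 3 months and lay between 4949 and 6191 with a median of 5606 at 6 months. All diabetic libraries were below the lowest prediabetic one at each stage, although limma did not call the 2-week change of -0.44 (95% interval -0.65 to -0.22, adjusted p = 0.237). Acads fell by 0.55 (SE 0.10, adjusted p = 0.00125) at 3 months and by 0.37 (SE 0.09, adjusted p = 0.0083) at 6 months. Acadm, the medium-chain dehydrogenase, had 33325, 39169, 31868, 33591 and 33197 normalised counts before diabetes, 16331, 28875, 26407, 28121 and 20831 at 3 months, and lay between 17749 and 33672 with a median of 21973 at 6 months. Its 3-month libraries lay below all prediabetic ones, and 1 library at 6 months, replicate 4, was inside their range. Acadm fell by 0.53 (SE 0.17, adjusted p = 0.0405) and by 0.56 (SE 0.17, adjusted p = 0.023). Hadha and Hadhb, the 2 subunits of the trifunctional protein, fell by 0.47 and 0.44 at 3 months and by 0.53 and 0.43 at 6 months. The thiolase Acaa2 and the very long-chain dehydrogenase Acadvl fell by 0.52 and 0.28 at 3 months and by 0.48 and 0.34 at 6 months, Acadvl having the smallest fall of the spiral genes at both stages.

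Eci1, the mitochondrial isomerase that repositions double bonds of unsaturated fatty acids, had 14654, 27952, 19602, 20773 and 25424 normalised counts before diabetes and 13431, 17358, 10866 and 6305 at 2 weeks. At 3 months it had 10036, 12468, 14366, 9734 and 8511, and at 6 months it lay between 7118 and 12196 with a median of 8279. Both late stages lay below every prediabetic library, as did 3 of the 4 libraries at 2 weeks. Eci1 fell by 0.97 (SE 0.24, adjusted p = 0.00993) at 3 months and by 1.26 (SE 0.23, adjusted p = 0.000948) at 6 months. Decr1, the dienoyl-CoA reductase of the same route, had 7979.9, 11174, 14006, 10152 and 10103 normalised counts at 3 months, against 13302, 19648, 14376, 13778 and 15747 before diabetes. Its ranges overlapped, and it fell by 0.53 (SE 0.16, adjusted p = 0.0246) at 3 months and was at -0.41 (95% interval -0.72 to -0.10, adjusted p = 0.0566) at 6 months.

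The genes that pass electrons from the acyl-CoA dehydrogenases to the respiratory chain were split. Etfdh, the membrane oxidoreductase at the end of this path, had 14315, 16429, 14498, 15344 and 16427 normalised counts before diabetes and 12334, 15838, 13488 and 10069 at 2 weeks. It had 9095, 11871, 11628, 7938 and 12178 at 3 months and lay between 7977 and 12742 with a median of 9170 at 6 months. Both late stages lay below all prediabetic libraries, and Etfdh fell by 0.56 (SE 0.14, adjusted p = 0.0121) and by 0.69 (SE 0.14, adjusted p = 0.00205). The subunits of its partner, the electron transfer flavoprotein, were not called. Etfa averaged 9679.9 ± 1251 normalised counts at 6 months against 9049.9 ± 715 before diabetes, a log2 difference of 0.09 (95% interval -0.11 to 0.29, adjusted p = 0.53). Etfb averaged 9129 ± 1427 against 9304 ± 2054, a difference of -0.02 (95% interval -0.29 to 0.26, adjusted p = 0.939).

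**Figure D2:**
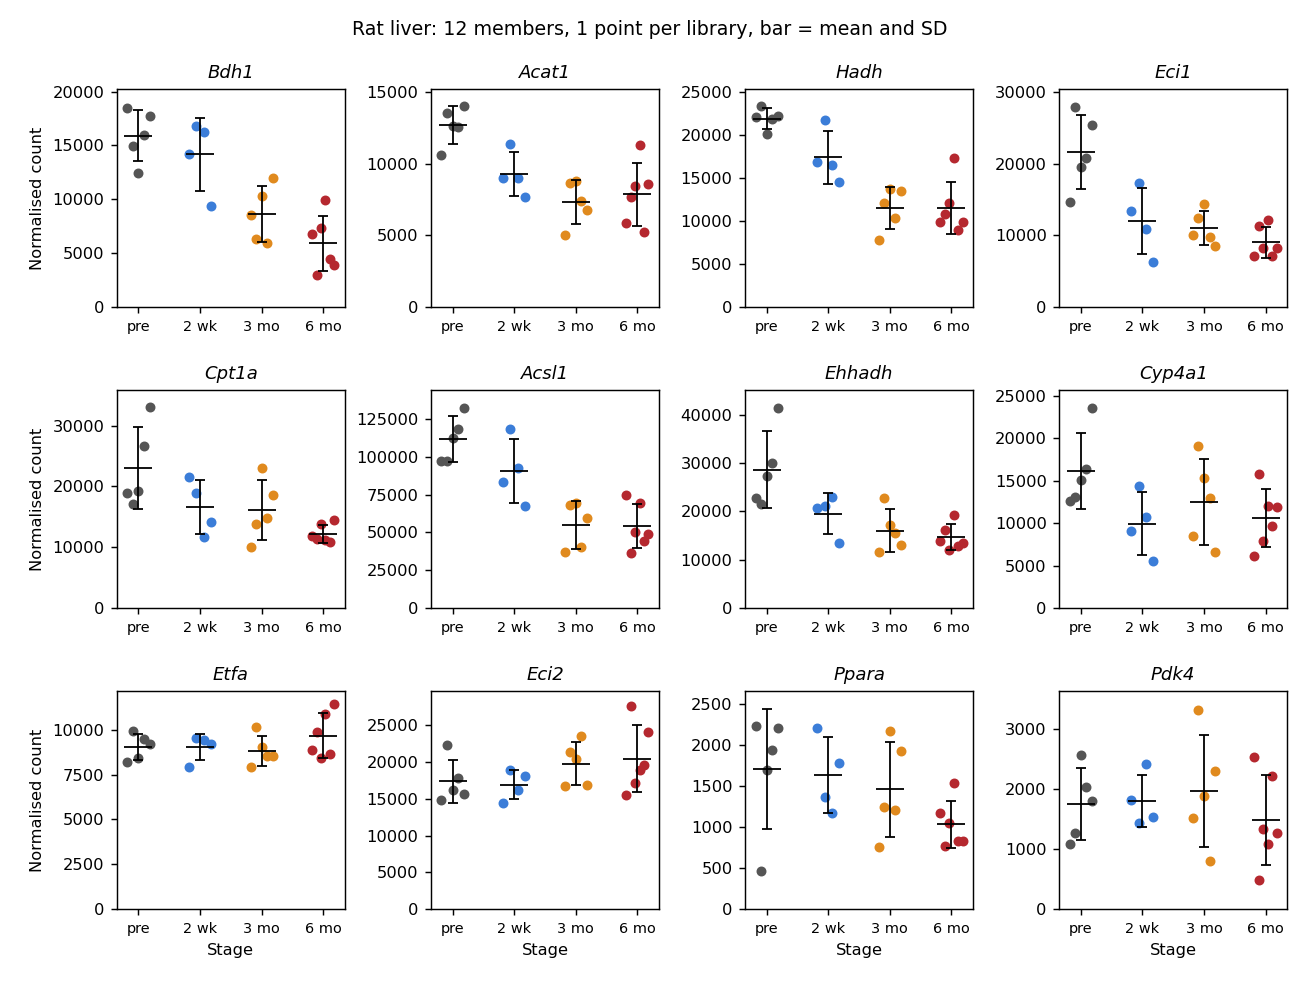
Normalised counts of 12 members at the 4 stages, 1 point per library, with horizontal bars for means and vertical bars for SD (n = 5, 4, 5 and 6). Bdh1, Hadh, Eci1 and Acsl1 lie below the prediabetic range at 3 and 6 months, while Etfa, Eci2, Ppara and Pdk4 overlap it at every stage.

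Of the 5 peroxisomal genes 3 fell at 3 months and 3 at 6 months, beside 8.72% and 10% of all genes called lower. Ehhadh, the bifunctional enzyme of the peroxisomal spiral, had 22675, 21598, 27309, 30076 and 41491 normalised counts before diabetes and 20741, 21063, 22922 and 13402 at 2 weeks. It had 11575, 22845, 17090, 15480 and 13062 at 3 months, of which replicate 2 reached the prediabetic range, and lay between 12055 and 19296 with a median of 13636 at 6 months, below that range throughout. Ehhadh fell by 0.84 (SE 0.20, adjusted p = 0.00876) at 3 months and by 0.95 (SE 0.19, adjusted p = 0.00228) at 6 months. Crot, which turns shortened peroxisomal chains into carnitine esters for export to mitochondria, had 16007, 13049, 11515, 13154 and 18460 normalised counts before diabetes, 4239.6, 11815, 9219.6, 6187 and 6913 at 3 months, and lay between 4925 and 17043 with a median of 6516 at 6 months. A single library at each late stage, 3-month replicate 2 and 6-month replicate 4, lay inside the prediabetic range. Crot fell by 0.98 (SE 0.31, adjusted p = 0.0354) and by 0.94 (SE 0.29, adjusted p = 0.0298). Acaa1a, the peroxisomal thiolase, had 9436, 10763, 9694, 12462 and 11607 normalised counts before diabetes and 8234, 8010.4, 8964 and 7005 at 2 weeks, where no library reached the prediabetic range. It had 5925, 8748, 10028, 9212 and 7705 at 3 months and lay between 7282 and 9982 with a median of 8113 at 6 months, both overlapping that range. Acaa1a fell by 0.39 (SE 0.13, adjusted p = 0.0433) and by 0.37 (SE 0.12, adjusted p = 0.0394). Hsd17b4, the second bifunctional enzyme, was at -0.24 (95% interval -0.43 to -0.05, adjusted p = 0.0686) at 6 months, with 19086 ± 1404 normalised counts against 22599 ± 2097 before diabetes. Eci2, an isomerase found in peroxisomes and mitochondria, had 20480 ± 4524 at 6 months against 17384 ± 2968, a difference of 0.22 (95% interval -0.08 to 0.53, adjusted p = 0.291).

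Cyp4a1, the omega-hydroxylase among the members in rats, had 12616, 13074, 15055, 16428 and 23600 normalised counts before diabetes and 9102, 14385, 10787 and 5517 at 2 weeks. It had 8500.4, 19145, 15353, 12947 and 6625 at 3 months and lay between 6182 and 15790 with a median of 10779 at 6 months. The ranges overlapped at every stage, with differences of -0.74 (95% interval -1.41 to -0.08, adjusted p = 0.567) at 2 weeks, -0.43 (95% interval -1.06 to 0.19, adjusted p = 0.34) at 3 months and -0.64 (95% interval -1.24 to -0.04, adjusted p = 0.12) at 6 months. Cyp4a genes share long stretches of sequence, so that reads may have been divided between them.

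Both ketone genes fell at 3 months and at 6 months, beside 8.72% and 10% of all genes called lower. Bdh1, the mitochondrial dehydrogenase that interconverts acetoacetate and 3-hydroxybutyrate, had 18503, 14954, 12443, 15954 and 17692 normalised counts before diabetes and 14243, 16803, 16237 and 9357 at 2 weeks. It had 8554, 6354, 10345, 5930.4 and 12009 at 3 months and lay between 3007 and 9927 with a median of 5623 at 6 months. All libraries of the last 2 stages lay below the prediabetic range. Bdh1 fell by 0.92 (SE 0.27, adjusted p = 0.0261) at 3 months and by 1.53 (SE 0.26, adjusted p = 0.000583) at 6 months, the 6-month change being the lowest of all 33 members at that stage. Acat1, the thiolase that joins 2 acetyl-CoA to acetoacetyl-CoA, had 10639, 13573, 12669, 12546 and 14055 normalised counts before diabetes and 8976, 11405, 9044 and 7698 at 2 weeks. It had 5059, 8685, 8800.4, 7424 and 6790 at 3 months and lay between 5254 and 11331 with a median of 8059 at 6 months. At 3 months no library reached the prediabetic range, and at 6 months replicate 4 did. Acat1 fell by 0.81 (SE 0.18, adjusted p = 0.00636) and by 0.73 (SE 0.17, adjusted p = 0.00644).

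With all libraries in the fit and weighted equally, the regulators and markers of PPARalpha activity were not called at any stage. Vnn1, a pantetheinase induced by PPARalpha, had 2181, 3233, 3888, 1649.8 and 2552 normalised counts before diabetes, 1734, 4216, 2976, 2383 and 2535 at 3 months, and lay between 1787 and 3698 with a median of 2740 at 6 months. Its ranges overlapped and its difference was 0.02 (95% interval -0.47 to 0.52, adjusted p = 0.954) at 6 months. Ppara itself, which encodes the receptor, had 2235, 459, 1694, 1936 and 2205 normalised counts before diabetes, the second library being far below the other 4, and lay between 772 and 1532 with a median of 944 at 6 months. The difference was -0.58 (95% interval -1.31 to 0.15, adjusted p = 0.256) at 6 months and -0.13 (95% interval -0.90 to 0.63, adjusted p = 0.836) at 3 months. Pdk4, the kinase that shuts off pyruvate dehydrogenase, was at -0.35 (95% interval -1.13 to 0.43, adjusted p = 0.541) at 6 months. Without prediabetic replicate 2, the low library, Ppara at 6 months was at -1.001 and was called (adjusted p = 0.00882), and with library weights it was at -0.90 and was called (adjusted p = 0.0148). In the other 19 of 21 omissions and settings its adjusted p lay between 0.173 and 0.462.

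**Figure D3:**
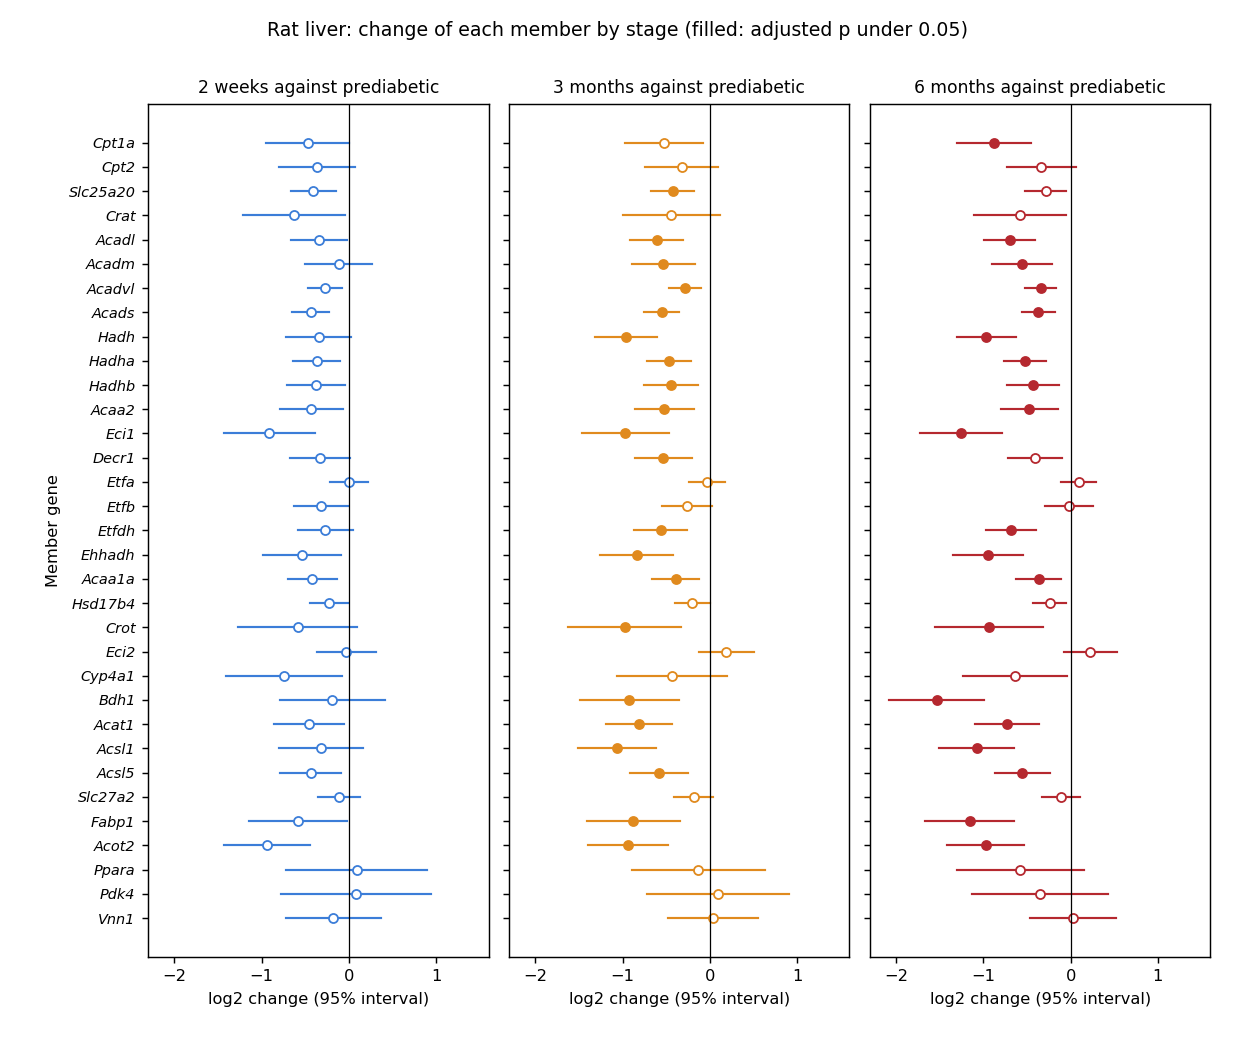
Log2 change of each of the 33 tested members against prediabetic livers at 2 weeks, 3 months and 6 months, with 95% intervals; filled points have an adjusted p under 0.05. The points lie left of 0 for 31, 30 and 30 members, and filled points appear at 3 months (21) and 6 months (20).

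No member was called at 2 weeks, and values are given for 1 member of each group of genes, that with the highest mean normalised count over all 20 rat libraries, with no correction for gene length. Acaa2 had 34847, 38000, 34868 and 25137 normalised counts at 2 weeks, against 36246, 52912, 41020, 44350 and 48437 before diabetes, a difference of -0.43 (95% interval -0.79 to -0.07, adjusted p = 0.532). Hsd17b4 had 19062, 20180, 19420 and 18202, against 19241, 24906, 23194, 22309 and 23343, a difference of -0.23 (95% interval -0.44 to -0.02, adjusted p = 0.579). The prediabetic range was reached by 1 of 4 libraries for Acaa2 and by 2 of 4 for Hsd17b4. The others were at -0.58 for Fabp1, -0.47 for Cpt1a, -0.91 for Eci1, -0.27 for Etfdh, -0.74 for Cyp4a1, -0.19 for Bdh1 and -0.18 for Vnn1. The largest 2-week difference among all members was that of Acot2 at -0.94 (95% interval -1.43 to -0.45, adjusted p = 0.294). Members of which no 2-week library reached the prediabetic range were Acads, Acaa1a and Acot2, all lower, 3 of 33 or 9.09%, and 2.29% of all genes tested had 2-week values wholly below the prediabetic ones.

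Diabetic stages were also set against each other. At 3 months against 2 weeks limma called none of 33 members, beside 2.35% of all genes called, 1.15% higher and 1.2% lower. The smallest adjusted p of the members was 0.0724. At an unadjusted p under 0.05, a looser threshold to which these shares do not apply, stood 4 members. At 6 months against 2 weeks 3 members fell, beside 8.82% of all genes called, 4.16% lower and 4.66% higher. Bdh1 was lower by 1.34 (SE 0.28, adjusted p = 0.00738), Hadh by 0.62 (SE 0.17, adjusted p = 0.0316) and Acsl1 by 0.76 (SE 0.22, adjusted p = 0.0385). For Bdh1 5 of the 6 libraries at 6 months lay below the lowest of the 4 at 2 weeks, which was 9357. Its call held in all 10 omissions of a library, whereas those of Hadh and Acsl1 ended in 7 of 10 each, with adjusted p up to 0.134 and 0.152. Between 6 and 3 months none of the members and 0.0147% of all genes were called by limma. At the looser unadjusted p under 0.05, to which that share does not apply, stood 1 member. It was Bdh1 at -0.61 (95% interval -1.16 to -0.07, adjusted p = 0.632). Scaling every library to the same column sum moved the median of all genes to -0.18 at 6 months against 2 weeks, at which 8 members fell, and to -0.15 at 6 against 3 months.

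Among 106 other genes of the same pathways, chosen by function, 92 were tested in rats. At 3 months 23 fell (25.0%, beside 8.72% of all genes) and 6 rose (6.52%, beside 7.76%), with a median of -0.26. At 6 months 31 fell (33.7%, beside 10% of all genes) and 10 rose (10.9%, beside 11%), with a median of -0.25. The 8 other ketone genes had a median of 0.10 at 3 months and -0.07 at 6 months.

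Of 7 other omega-oxidation genes 3 fell at 3 months and 4 at 6 months. The shares of all genes called lower, beside which this count and the peroxisomal one stand, were 8.72% and 10%. The hydroxylase Cyp4a8 fell by 2.29 and 2.80, Cyp4a2 by 1.00 and 1.11, and the fatty aldehyde dehydrogenase Aldh3a2 by 0.64 and 0.71 at 3 and 6 months. Por, the reductase that supplies cytochromes P450 with electrons, fell by 1.30 (SE 0.46, adjusted p = 0.0491) at 6 months. Peroxisomal falls numbered 5 of 20 at 3 months and 10 of 20 at 6 months. They included at 3 months the alpha-oxidation enzyme Phyh (-0.85) and the branched-chain oxidase Acox2 (-0.77), and at 6 months Pex11a, a factor of peroxisome division (-1.02), and the thioesterase Acot4 (-0.83).

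Other mitochondrial genes were called both ways, 6 of 19 lower and 2 higher at 3 months, and 5 lower and 2 higher at 6 months. Beside these and the counts below, 8.72% of all genes were called lower and 7.76% higher at 3 months. At 6 months the shares were 10% and 11%. Acadsb, a dehydrogenase of branched short chains, rose by 1.28 and 0.81, while Mcee, an epimerase of the propionate route, fell by 0.87 and 0.45. Cpt1b, the muscle form of the entry transferase, rose by 1.33 at 3 months with 265 ± 155 normalised counts against 95.7 ± 24.2 before diabetes, and Pcca of propionate carboxylation rose by 0.47 at 6 months. In uptake and activation the medium-chain synthetase Acsm3 rose by 1.93 at 3 months and 2.24 at 6 months (SE 0.25, adjusted p = 1.51e-05). Fabp2, a second fatty acid binding protein, fell by 1.21 and 1.48, and Dbi, the acyl-CoA binding protein, by 1.12 and 1.03. Counts for this list were 3 lower and 2 higher of 14 at 3 months, and 2 lower and 4 higher at 6 months. Of 24 other regulators and PPARalpha-responsive genes 5 fell and 2 rose at 3 months, and 9 fell and 4 rose at 6 months. G0s2, an inhibitor of triglyceride lipase, fell by 2.21 and 2.65, and Angptl4, a secreted inhibitor of lipoprotein lipase, by 1.57 at 6 months. The kinase Pdk1 fell by 0.84 and the lipid droplet gene Hilpda rose by 0.86 at 3 months, and the aldehyde dehydrogenase gene Aldh1a7 rose by 2.05 at 6 months. At 3 months against 2 weeks Mcee was lower by 0.60 and Acsm3 higher by 1.06. At 6 months against 2 weeks Cyp4a8 (-2.59), the hydrogen peroxide-degrading Cat (-0.65), the enoyl-CoA reductase Pecr (-0.50) and Mut of propionate breakdown (-0.45) fell, and Acsm3 (1.38), the hydratase Echs1 (0.78) and the synthetase Slc27a5 (0.68) rose.

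The calls of members near the threshold depended on single libraries. At 3 months Hadhb (adjusted p = 0.0491) lay just inside it and Cpt1a (0.0942) just outside, and at 6 months Acaa1a (0.0394) lay inside and Decr1 (0.0566) outside. Without 3-month replicate 1 the members called lower at 3 months numbered 11, and without prediabetic replicate 4 or 5 they numbered 12, in place of 21. Calls over all genes changed too, to 1456 without 3-month replicate 1 in place of 2248. At 6 months the count of members ran from 15, without prediabetic replicate 4 or 5 or 6-month replicate 5, to 22 without 6-month replicate 4. Genes called over the whole table ran from 1919 to 3567 in the 6-month omissions, in place of 2875. At 3 months 10 members kept their call in every omission and in every other setting tried, namely Acads, Hadh, Hadha, Acadl, Eci1, Etfdh, Ehhadh, Acat1, Acsl1 and Acot2. At 6 months 14 did, those 10 with Bdh1, Fabp1, Cpt1a and Acadvl. The 3-month calls of Bdh1 and Fabp1 ended in 6 and 5 of 10 omissions, with adjusted p up to 0.0688 and 0.0704. Crot lost its call in 6 of 10 omissions at 3 months and 6 of 11 at 6 months (adjusted p up to 0.105 and 0.0796), Acaa1a in 6 and 6 (0.125 and 0.114), Hadhb in 7 and 8 (0.125 and 0.101), Acaa2 in 5 and 6 (0.0914 and 0.0868), and Acadm in 7 and 2 (0.120 and 0.0582). Acadvl lost its 3-month call in 6 omissions (adjusted p up to 0.0792), Decr1 without prediabetic replicate 2 or 3-month replicate 1 (up to 0.0768), and Slc25a20 without 3-month replicate 1 (0.0584). Acsl5 lost it without prediabetic replicate 4 or 5 at both stages, and at 3 months also without 3-month replicate 1 (up to 0.0566 and 0.0536). Other members gained a call. Cpt1a was called lower at 3 months without 3-month replicate 3 (adjusted p = 0.0398). At 6 months Decr1 and Slc25a20 were called lower in 4 of 21 omissions and settings each, Hsd17b4 in 3 and Cyp4a1 in 1, besides Crat and Ppara. Scaling to a common column sum gave 15 and 23 members called lower and none higher, while it moved the share of all calls that were higher to 62.5% in place of 47.1% at 3 months and to 33.8% in place of 52.3% at 6 months.

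Markers of other cell types moved at the same stages. Over all genes 7.76% were called higher and 8.72% lower at 3 months, and 11% and 10% at 6 months. All 9 hepatocyte markers with an entry were detected, with sums of 4891200 to 6711200 normalised counts before diabetes, 4617100 to 5887500 at 2 weeks, 4096500 to 6890300 at 3 months and 5356200 to 9236900 at 6 months. Of these markers Ttr (-1.32), Cps1 (-0.88) and Apoa2 (-0.58) fell at 3 months, and at 6 months Ttr fell (-1.22) and Serpina1 rose (0.56). Kupffer cell and macrophage markers rose in 9 of 10 at 3 months and 9 of 10 at 6 months, led by Marco (1.62 and 1.82) and Cd5l (1.40 and 1.55), the exception being Clec4f (0.53 and 0.48). Their sum lay between 14863 and 22273 normalised counts before diabetes, 14837 and 18246 at 2 weeks, 21004 and 49368 at 3 months, and 22029 and 65946 at 6 months. In 3-month replicate 1 and 6-month replicate 5 this sum was the highest of its stage, while the hepatocyte sum and the members' share were the lowest of theirs. In 6-month replicate 4 the macrophage sum was the lowest of its stage (22029) and the members' share the highest (1.35%). At 6 months the macrophage sums of replicates 2, 1, 6 and 3 rose in that order (26634, 31132, 34069 and 45205). Their shares were 1.15%, 1.08%, 1.01% and 1.07%, so that only replicates 6 and 3 left the reverse order. At 3 months other libraries did not follow it. The lowest macrophage sum at 3 months (21004, replicate 4) came with a share of 1.23%, under the stage's median of 1.29%. The highest hepatocyte sum at 6 months (9236900, replicate 6) came with 1.01%, under the median of 1.08%.

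Stellate cell and fibroblast markers rose in 5 of 9 at 3 months and 4 of 9 at 6 months, led by Dcn (2.08 and 2.36), with sums of 3545 to 5272 before diabetes, 4851 to 6303 at 2 weeks, 6288 to 8212 at 3 months and 5482 to 7678 at 6 months. Endothelial markers rose in 2 of 9 at either stage, bile duct markers in 1 and 3 of 7, and lymphocyte and neutrophil markers in 3 and 4 of 8, with S100a8 and S100a9 higher by 2.97 and 3.22 at 3 months. These lists are short, and 7.76% of all genes were called higher at 3 months and 11% at 6 months. Sums of the last list lay between 532 and 758 before diabetes, 645 and 820 at 2 weeks, 974 and 3762 at 3 months, and 831 and 3013 at 6 months. Adipocyte markers Lep and Plin1, pancreatic Prss1, Prss2, Cela2a and Pnlip, and skeletal muscle Mb were at 0 in every rat library. The adipocyte list still summed to 4201 to 5165 normalised counts before diabetes and 2893 to 4384 at 6 months. The pancreatic list summed to 255 to 330 and 112 to 232. Red blood cell sums lay between 14265 and 22905 before diabetes and between 3330 and 63028 at 6 months, replicate 1 being the highest. Of the red blood cell markers 1 of 5 rose at either stage, and of the 3 adipocyte markers that passed the filter 1 fell at 3 months and 1 fell and 1 rose at 6 months. The single pancreatic marker tested fell at 6 months, and no muscle marker passed the filter. At 2 weeks limma called no marker of any list. At 6 months against 2 weeks 8 of the 10 macrophage markers rose, beside 4.66% of all genes called higher. The part of these cell types in the changes of the members was not tested.

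**Figure D4:**
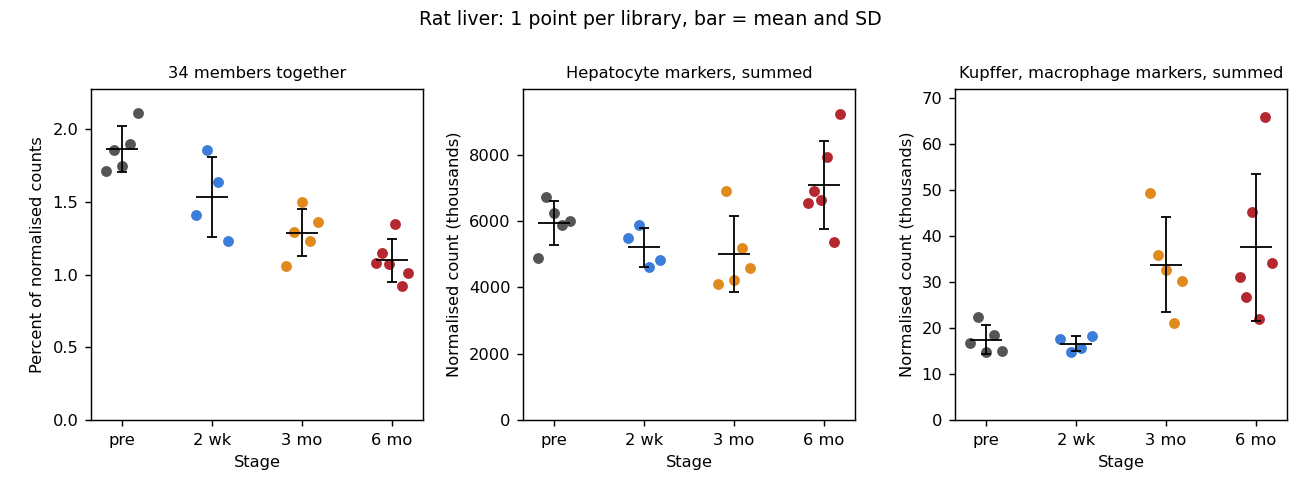
Share of all normalised counts held by the 34 members, and summed normalised counts of the 9 hepatocyte and the 10 Kupffer cell and macrophage markers, by stage; points are libraries and bars mean and SD. The members' share lies between 0.924% and 1.5% at 3 and 6 months, below the lowest prediabetic 1.71%, and the macrophage sum exceeds the highest prediabetic 22273 in all but 2 of the 11 libraries of these stages.

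The mouse livers show the same genes after treatment with LNA-29. The microRNA was not measured in these RNA libraries. Its rat mature forms in RefSeq (GRCr8) are shown because they share the seed, bases 2 to 8 from the 5′ end, given here in capitals, by which targets are recognised.
miR-29a-3p: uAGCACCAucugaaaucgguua
miR-29b-3p: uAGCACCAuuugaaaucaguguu
miR-29c-3p: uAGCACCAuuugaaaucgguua
Of 24 reported miR-29 targets, a list of matrix and chromatin genes, 12 rose and none fell, beside 2.43% of all genes called, 1.57% higher and 0.863% lower. The elastin gene Eln rose by 1.82 (SE 0.17, adjusted p = 0.000202), the DNA methyltransferase Dnmt3b by 1.36 and the matrix protein gene Sparc by 1.26. This list was known to hold responders in these libraries and gives no independent evidence of its direction.

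None of the 35 members was called by limma in LNA-29 livers, and 4 had an unadjusted p under 0.05, or 11.4%, against 19.2% of all genes. The median of the members was 0.06, against 0.00 over all genes, and 25 of 35 lay above 0. Their intervals were narrow for most genes, lying within a log2 change of 0.5 either way for 27 of 35 and within 1 for 33. LNA-29 and control ranges overlapped for every member, and for all genes tested but 3.95%.

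By role, Fabp1 had 132930, 76943, 156160, 151850 and 131340 normalised counts with LNA-29 and lay between 68733 and 174000 with a median of 82942 in controls, a difference of 0.43 (95% interval -0.11 to 0.96, adjusted p = 0.371). Cpt1a had 41482, 36881, 51100, 44376 and 42890 with LNA-29 and lay between 35462 and 42558 with a median of 40849 in controls, a difference of 0.10 (95% interval -0.08 to 0.29, adjusted p = 0.549). Acadm had 33857, 36405, 33220, 29856 and 35550 with LNA-29 and lay between 30144 and 36933 with a median of 32471 in controls, a difference of 0.02 (95% interval -0.15 to 0.18, adjusted p = 0.927). For these 3 genes 1 library or more of each treatment lay inside the range of the other. Decr1 was at 0.08 (95% interval -0.06 to 0.21, adjusted p = 0.545) and Etfdh at 0.06 (95% interval -0.06 to 0.19, adjusted p = 0.583). Ehhadh had 90428, 88757, 79329, 78318 and 71206 normalised counts with LNA-29 and lay between 65144 and 130430 with a median of 104850 in controls, a difference of -0.27 (95% interval -0.63 to 0.08, adjusted p = 0.391). The omega-hydroxylase Cyp4a14 had 353010, 466060, 300890, 293220 and 319120 with LNA-29 and lay between 308440 and 430840 with a median of 360000 in controls, a difference of -0.10 (95% interval -0.43 to 0.23, adjusted p = 0.783), and Cyp4a10 was at -0.04 (95% interval -0.36 to 0.29, adjusted p = 0.927). Controls spanned the LNA-29 values for Ehhadh, and the Cyp4a genes overlapped widely, with the doubt about their reads noted for rats.

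Among ketone genes Acat1 had 29192, 26580, 30182, 25681 and 31817 normalised counts with LNA-29 and lay between 22479 and 29650 with a median of 28122 in controls, a difference of 0.07 (95% interval -0.11 to 0.25, adjusted p = 0.708). Bdh1 had 17915, 10482, 22972, 22082 and 16815 with LNA-29 and lay between 8933 and 16366 with a median of 11098 in controls. Of the 5 LNA-29 libraries 4 were above all control libraries, and replicate 2 was inside their range. The difference was 0.62 (95% interval 0.18 to 1.06, adjusted p = 0.121), the smallest adjusted p of the members. Without LNA-29 replicate 2 it was 0.80 and was called (adjusted p = 0.0244), and this was the single member called in any omission. With library weights it was 0.73 and was called (adjusted p = 0.0371), and in the other 18 of 20 omissions and settings its adjusted p lay between 0.0706 and 0.260. The same library was the lowest of its group for 15 of the 35 members, among them Fabp1, Crot and Vnn1, and the highest for 13, among them Cyp4a10 and Cyp4a14. Members with an unadjusted p under 0.05 other than Bdh1 were Ppara at 0.19 (95% interval 0.03 to 0.35, adjusted p = 0.193), Pdk4 at 0.69 (95% interval 0.05 to 1.32, adjusted p = 0.221) and Acads at 0.15 (95% interval 0.01 to 0.29, adjusted p = 0.239). Vnn1 had 9624, 5904, 12181, 11555 and 9855 with LNA-29 and lay between 9359 and 19206 with a median of 10671 in controls, a difference of -0.26 (95% interval -0.70 to 0.18, adjusted p = 0.519). The 21 remaining members lay between -0.14 (Cpt2) and 0.42 (Crot).

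Of 94 other pathway genes tested in mice 2 rose, or 2.13%, beside 1.57% of all genes, and none fell, beside 0.863%, with a median of 0.02. Acad12, an acyl-CoA dehydrogenase gene, rose by 0.62 (SE 0.13, adjusted p = 0.0291) and Mcee by 0.29 (adjusted p = 0.0459). Of the cell type markers limma called the endothelial Clec4g (0.47) and the pancreatic Cela2a (1.37), both higher. Hepatocyte sums lay between 5074200 and 7950500 with LNA-29 and between 4541100 and 7333800 in controls. Macrophage sums lay between 8842 and 17795 with LNA-29 and between 9843 and 13407 in controls. Pancreatic Prss1, Prss2, Cela3b, Cpa1, Pnlip and Ctrb1, adipocyte Lep and the muscle myosins Myh1 and Myh2 were at 0 in every mouse library. The adipocyte list still summed to 1505 to 2696 normalised counts with LNA-29 and 1116 to 4106 in controls. The pancreatic list summed to 129 to 150 and 76.0 to 125. Scaling to a common column sum left no member called and made 78.6% of the calls over all genes higher in place of 64.5%.

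**Figure D5:**
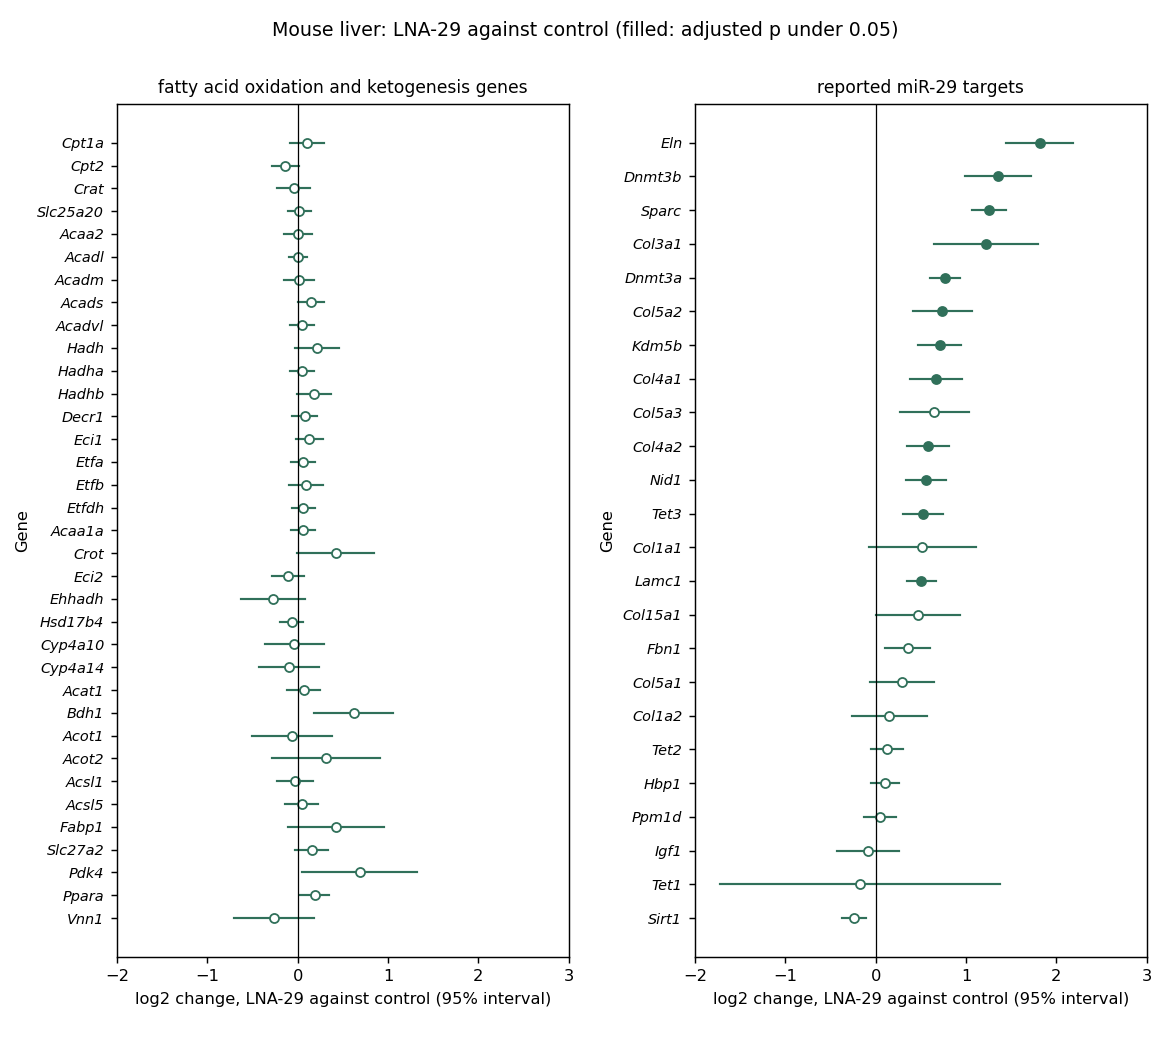
Log2 change in LNA-29 against control mouse livers for the 35 members, ordered by role, and for 24 reported miR-29 targets, ordered by size, with 95% intervals; filled points have an adjusted p under 0.05. No member is filled and most intervals lie within 0.5 of 0, while 12 targets are filled, all right of 0.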

How the data were processed

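Polyadenylated RNA libraries (Illumina TruSeq, per the labels) of 20 UCD-T2DM rat livers and 11 C57BL/6J mouse livers were analysed. The authors deposited a signal per gene and library, a normalised read count. The submitters' processing notes name STAR, Salmon and DESeq2 and the builds rn6, mm10, mm9 and hg19 without saying what each was used for. No version of these tools is given in the sources used here. Of values under 20, 18.1 to 80.0% per rat library and 19.2 to 58.8% per mouse library were whole multiples of that library's most frequent low value, to within 0.01. Higher values were not checked in this way. Whole reads were not recovered, and no counting interval is given. Every library matched a label, and 0 per-sample columns were left unused.

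From these values log2(value + 1) was computed. Genes with a mean of at least 10 were fitted with limma 3.58.1 in R 4.3.3, with a variance trend, the 4 rat stages in 1 model and the mouse groups in another. P-values were adjusted by Benjamini-Hochberg over all genes tested, intervals are 95%, and the fit was checked on simulated data. Tables and plots were made with pandas 2.3.3 and matplotlib 3.10.9 in Python 3.11.15. For each role and comparison, values are given for up to 3 called members with the largest change or, where none was called, for the member with the highest mean, and other pathway genes are named up to 3 per list, some of which are not reported here. The members and all lists were chosen with earlier results of these data known. Alternatives were pseudocounts of 0.5 and 10, no filter, a mean of at least 100, 2 rescalings, no variance trend, library weights, a replicate block, the 2 groups alone, and omission of each library. Reads of near-identical genes may have been split, and levels are not compared between genes because lengths were not used.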

Additional observations from a re-analysis of the deposited data

Results flagged for a closer look

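In 14 of 202 groups of values tested, 1 library stood apart from the rest of its group by Dixon's 95% criterion, and chance alone gives about 1 in 20. Prediabetic replicate 2 was highest for Acadm (39169), Acads (8782.3) and Etfb (12942), and prediabetic replicate 5 for Acot2 (2880.0). At 2 weeks replicate 2 was highest for Hadhb (14230.0). At 6 months replicate 4 was highest for Crat (2263.3), Crot (17043) and Fabp1 (95829). In mice LNA-29 replicate 2 was highest for Slc25a20 (8260.8) and Etfa (13336). Control replicate 4 was lowest for Etfa (10408) and Acat1 (22479), and control replicate 5 was highest for Acot2 (3260.4) and Vnn1 (19206). All are normalised counts.

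The change from prediabetic livers differed between 6 months and 2 weeks for 3 of 33 members, by limma's test of that difference. Of all genes 8.82% were called in the same comparison. The log2 difference was -1.3443 for Bdh1, -0.62046 for Hadh and -0.7569 for Acsl1. The calls of Hadh and Acsl1 each ended in 7 of 10 omissions of a library, whereas that of Bdh1 held in all 10.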

How the results depend on the processing

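No called member changed direction in any omission or setting tried. Other settings gave 15 to 21 members called lower at 3 months and 17 to 25 at 6 months. Library weights gave 26 genes at 2 weeks, 4358 at 6 months, 851 with 1 member lower (Hadh) at 3 months against 2 weeks, 2218 with 5 members lower at 6 months against 2 weeks, and 620 with 1 member higher (Bdh1) for LNA-29. A common column sum gave 211 genes at 3 months against 2 weeks, 2501 with 8 members lower and 16% of calls higher, in place of 52.9%, at 6 months against 2 weeks, and 182 for LNA-29. Fitting only the 2 groups gave 162 genes at 3 months and 1 member lower at 6 months, both against 2 weeks, a pseudocount of 10 gave 5 genes at 6 against 3 months, and for LNA-29 no filter gave 212 genes and no variance trend 195. The cause of these shifts was not tested.

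Omitting 1 library gave 0 to 3 genes at 2 weeks, 1456 to 2389 with 11 to 22 members lower at 3 months, and 1919 to 3567 with 15 to 22 members at 6 months. Against 2 weeks it gave 41 to 557 genes with 0 to 1 members at 3 months and 317 to 1716 with 1 to 5 members at 6 months. It gave 0 to 4 genes at 6 against 3 months, and 120 to 540 with 0 to 1 members higher for LNA-29.

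Replicate numbers were not taken as a pairing. Same-numbered libraries had correlations of -0.184 up to 0.216 for the rat stages and -0.0769 up to 0.125 for the mouse groups. In mice 1 of 5 correlated best with its own number. In rats 2 of 4 did in each comparison with the 2-week libraries, and 1 of 5 at 6 months against prediabetic livers. None of 5 did at 3 months against prediabetic livers or at 6 against 3 months. With the replicate number as a block, 19 and 20 members were lower at 3 and 6 months, with 2231 and 2459 genes. The block gave 195 genes at 3 months against 2 weeks, 574 with 1 member lower at 6 months against 2 weeks, 1 at 6 against 3 months and 70 for LNA-29.

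Read counts behind the deposited values were not recovered. Ppara at 6 months was called lower without prediabetic replicate 2 (-1.001, adjusted p = 0.00882) and with library weights (-0.90, 0.0148).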
